A study of Mus musculus with 4 samples.

Results

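The 41 mouse genes described here encode the subunits of the proteasome and its activators: Psma1 to Psma7, Psmb1 to Psmb10, Psmc1 to Psmc6, Psmd1 to Psmd14 and Psme1 to Psme4. They were chosen by gene symbol, without pseudogenes, from 53647 genes listed in the count tables, and all 41 were found and passed the filter on low counts, as did 12972 genes in all. RNA was sequenced from 4T1 cells, a mouse mammary carcinoma line labelled as wild type, after delivery of mRNA. The Mock group of 2 libraries received mRNA for the fluorescent protein EGFP, and the uniSTING group of 2 libraries received mRNA for uniSTING, a mimic of the innate immune adaptor STING. Both groups were therefore mRNA-treated, and the comparison has no untreated cells. Carriers named in the protocols are lipid nanoparticles and a transfection reagent. Neither is tied to a library, and dose and time are not stated.

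The proteasome degrades proteins tagged with ubiquitin. Its barrel-shaped core particle has outer rings of alpha subunits, encoded by Psma genes, and inner rings of beta subunits, encoded by Psmb genes, and a regulatory particle of Psmc ATPases and Psmd subunits recognises, unfolds and feeds in the substrate. Proteolysis is carried out by the constitutive beta subunits Psmb5, Psmb6 and Psmb7. In immune cells and in cells exposed to interferon they can be replaced during assembly by the inducible subunits Psmb8, Psmb9 and Psmb10, which gives the immunoproteasome, known for producing peptides suited to MHC class I. Psme1 and Psme2 encode the activator PA28 alpha/beta, which is also interferon-inducible.

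Total counts were 17502694 and 22039546 in Mock and 18843543 and 25071840 in uniSTING (replicates 1 and 2), and a member had between 165 and 13776 counts in a library. For genes of 50 counts or more, the variance within a group was 1.46 times what counting alone gives in Mock and 1.51 times in uniSTING. The sample titles call the libraries of each group Preparation 1 and Preparation 2, named replicates 1 and 2 here. The labels do not say that the libraries came from separate cultures, so the p-values rest on a spread that may be technical. Epithelial markers (Epcam, Cdh1, Krt8, Krt18, Krt14) were present in every library, at 3572 to 3638 CPM in sum (CPM, counts per 1000000 counts of the scaled library size). Singly, Cdh1 fell 1.15-fold, Epcam, Krt14 and Krt8 rose 1.11-fold, 1.14-fold and 1.04-fold, and Krt18 did not pass. With the length trend removed Epcam and Krt14 did not pass, and Cdh1, Krt8 and Krt18 passed as lower. Leukocyte markers (Ptprc, Cd68, Cd3e, Cd79a, Lyz2) summed to 17.7 and 6.43 CPM in Mock and to 27.2 and 10.5 CPM in uniSTING, higher in replicate 1 of each group. The macrophage marker Lyz2 stood at 8.79 and 15.5 CPM in the replicate 1 libraries of Mock and uniSTING and at 0 in both replicate 2 libraries, and the pan-leukocyte marker Ptprc (0.454 and 1.01 CPM in the replicate 1 libraries) was also at 0 there. Cd68, another macrophage marker, was present in all 4 libraries, at 8.34 and 6.43 CPM in Mock and 10.7 and 10.4 CPM in uniSTING, and rose 1.44-fold (adjusted p = 0.0065). The Cd68 call was lost with the length trend removed (adjusted p = 0.0897). The fibroblast marker Pdgfra rose from 7.15 and 6.38 CPM to 8.91 and 8.56 CPM (adjusted p = 0.0243), which DESeq2 did not call (adjusted p = 0.142). Another, Col1a1, did not pass, at 1.99 and 1.27 CPM in Mock and 1.92 and 1 CPM in uniSTING (adjusted p = 0.753). Col3a1 and Dcn, also fibroblast markers, were at 0 in both replicate 2 libraries and were not tested. Endothelial markers (Pecam1, Cdh5, Kdr) summed to 1.76 and 0.226 CPM in Mock and 1.07 and 0.161 CPM in uniSTING. In bulk RNA, fewer cells of a type and less RNA per cell cannot be told apart.

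Most constitutive proteasome transcripts were higher in uniSTING, while none of the 3 catalytic transcripts of the immunoproteasome passed as higher. Of the 41 members, 33 rose, 3 fell and 5 did not pass (edgeR quasi-likelihood test, adjusted p under 0.05 over all genes tested). Over all tested genes 50.2% passed, 24.9% higher and 25.4% lower. The rises were small, from 1.05-fold to 1.63-fold with a median of 1.22-fold. Over all 41 members the median log2 fold change was 0.25, against 0.006 over all tested genes. Together the 41 genes took 0.784% and 0.786% of all counts in Mock and 0.91% and 0.915% in uniSTING. The groups did not overlap for 39 members, 35 of them higher and 4 lower in uniSTING, where 37.8% and 37.3% of all tested genes were separated in these directions. Most members are abundant, and abundant genes passed more often. Among the 2324 tested genes with a mean of at least 100 CPM, a bound chosen after seeing the data, 79.7% passed, 38.6% higher and 41.1% lower, with a median of -0.01. Of the 33 members above that bound, 30 rose and 2 fell.

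**Figure D1:**
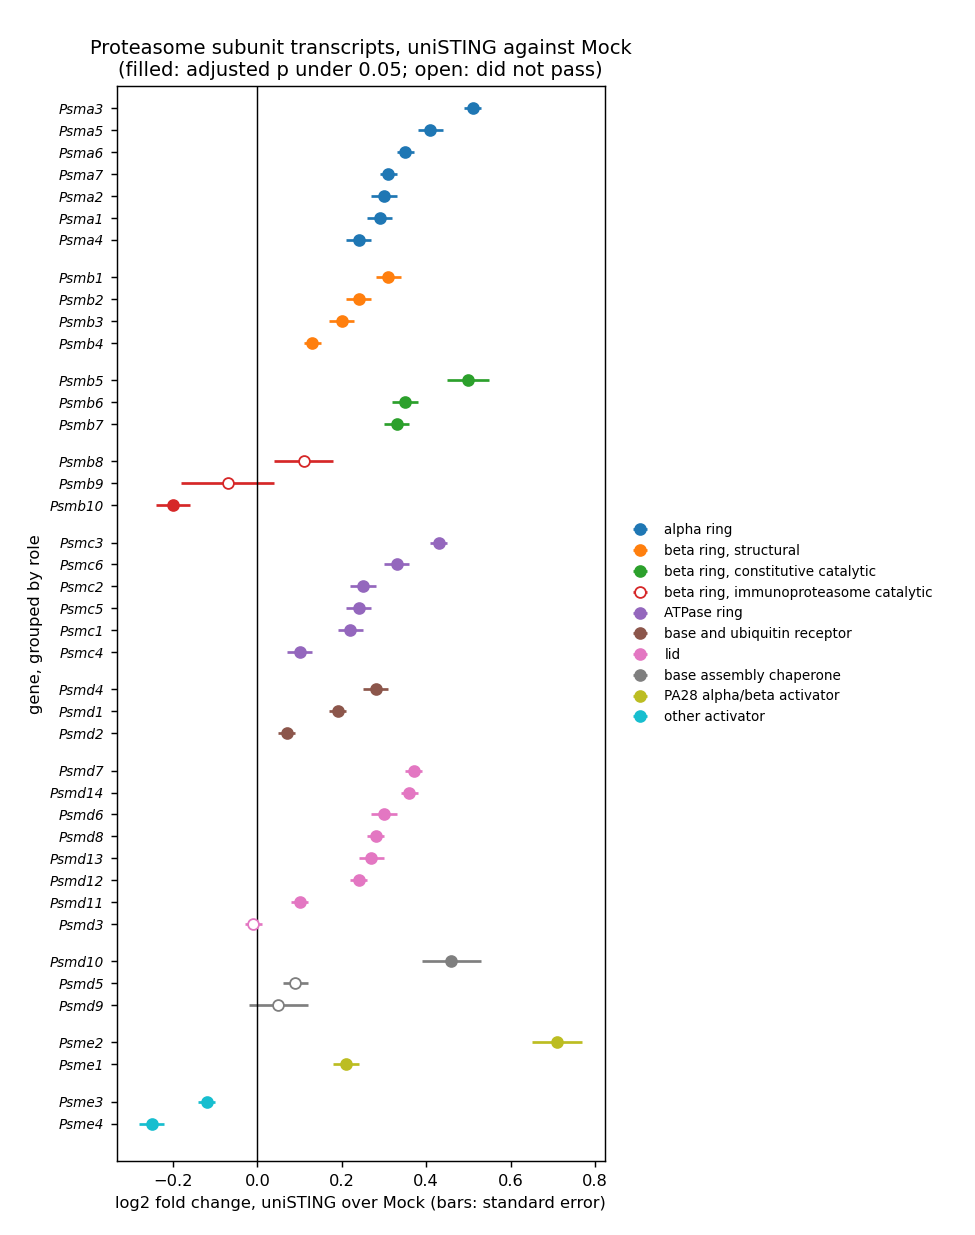
Log2 fold change of each of the 41 members in uniSTING over Mock (x axis) by gene and role (y axis), with standard errors as bars; filled points passed an adjusted p of 0.05 and open points did not. All 14 constitutive core genes lie right of 0, while Psmb9, Psmb10, Psmd3, Psme3 and Psme4 lie left of it.

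None of the 3 inducible catalytic genes passed as higher. Psmb8 (ENSMUSG00000024338, chromosome 17, 34416695 to 34420428, GRCm39), the counterpart of Psmb5, had 23.9 and 24.8 CPM in Mock against 26.8 and 26 CPM in uniSTING. The groups lay close together without overlap, and the log2 fold change of 0.11 (SE 0.07, adjusted p = 0.193) did not pass. Its 95% interval from limma-voom ran from -0.04 to 0.26, which holds the median of all members, 0.25. A rise of that size is thus not excluded for Psmb8. Psmb9 (chromosome 17, 34400961 to 34406738), the counterpart of Psmb6, stood at 9.36 and 10.5 CPM in Mock and at 9.29 and 9.64 CPM in uniSTING. These values overlapped, and the log2 difference was -0.07 (SE 0.11, adjusted p = 0.597) and an interval from -0.33 to 0.17.

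Psmb10 (chromosome 8, 106662367 to 106665076), the counterpart of Psmb7, went from 89.4 and 98.2 CPM in Mock to 80.5 and 82.9 CPM in uniSTING. Both uniSTING libraries lay below both Mock libraries, and the gene fell by 0.20 on the log2 scale (SE 0.04, adjusted p = 0.00308). The call was lost without Mock replicate 2, the highest of the 4 libraries (log2 fold change -0.13, adjusted p = 0.0707). With the dependence of fold changes on gene length removed, the log2 fold change was -0.39. Leukocytes are rich in these 3 subunits, so their levels are set beside the leukocyte markers. All 3 genes had higher CPM in Mock replicate 2 than in Mock replicate 1, while the summed leukocyte markers went the other way (6.43 against 17.7 CPM), Lyz2 from 8.79 CPM to 0 and Cd68 from 8.34 to 6.43 CPM. In uniSTING, replicate 2 was higher than replicate 1 for Psmb9 and Psmb10 and lower for Psmb8. Between the groups Cd68 was higher in uniSTING, and the part of such cells in these 3 levels was not tested.

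The constitutive counterparts rose. Psmb5 (chromosome 14, 54851576 to 54855479), the chymotrypsin-like subunit, went from 55.3 and 59.3 CPM in Mock to 78.5 and 83.5 CPM in uniSTING, a rise of 0.50 on the log2 scale (SE 0.05, adjusted p = 8.76e-06). Psmb6 (chromosome 11, 70416193 to 70418684), the caspase-like subunit, went from 153 and 151 CPM to 189 and 197 CPM, a rise of 0.35 on the log2 scale (SE 0.03). Psmb7 (chromosome 2, 38478048 to 38534099), the trypsin-like subunit, went from 127 and 124 CPM to 160 and 156 CPM, a rise of 0.33 on the log2 scale (SE 0.03). For each of the 3 genes both uniSTING libraries lay above both Mock libraries. Psmb5 is the shortest member, with 0.899 kb of exon, and its log2 fold change was 0.24 with the length trend removed (adjusted p = 0.00446), against 0.18 for Psmb6 and 0.29 for Psmb7.

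**Figure D2:**
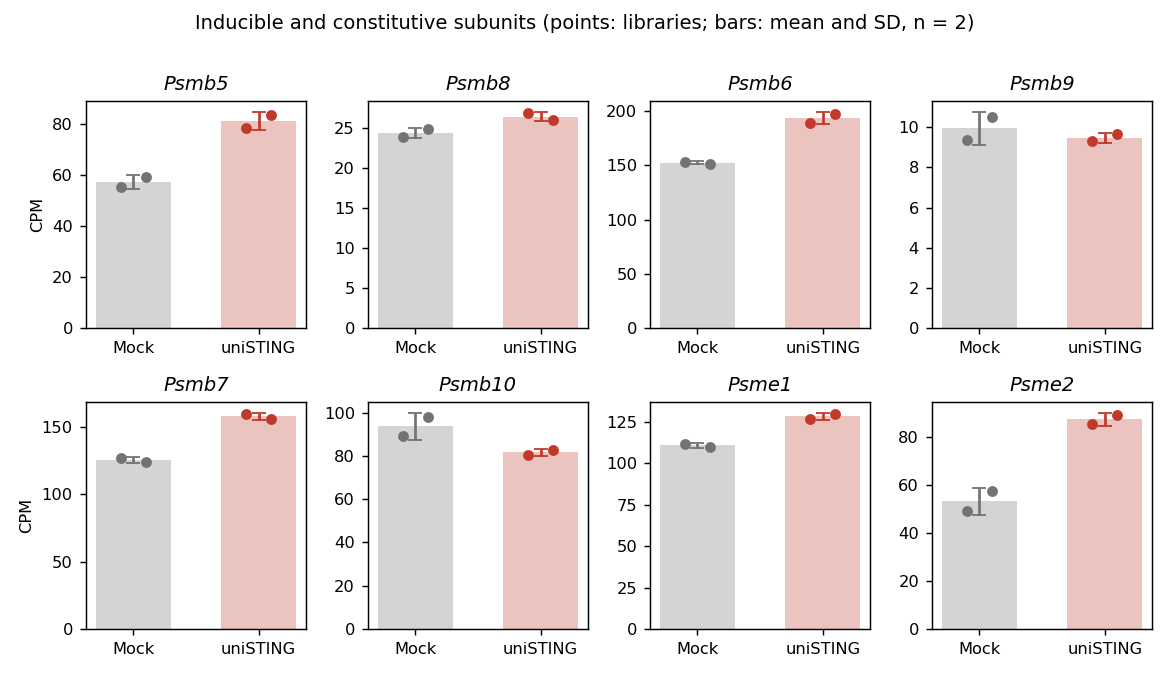
CPM (y axis) of the inducible and constitutive catalytic subunits and of Psme1 and Psme2 in Mock and uniSTING; points are libraries, bars are means with SD (n = 2). Psmb5, Psmb6, Psmb7, Psme1 and Psme2 are higher in both uniSTING libraries, Psmb10 is lower, and the Psmb9 groups overlap.

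Each inducible subunit takes the ring position of 1 constitutive subunit, so the pairs were compared as ratios of CPM per kilobase of exon within a library. The Psmb8/Psmb5 ratio was 0.115 and 0.111 in Mock and 0.0907 and 0.0828 in uniSTING, a difference of -0.38 on the log2 scale. The Psmb9/Psmb6 ratio was 0.0313 and 0.0358 in Mock and 0.0252 and 0.0251 in uniSTING, a difference of -0.41. The Psmb10/Psmb7 ratio was 1.41 and 1.58 in Mock and 1.01 and 1.07 in uniSTING, a difference of -0.53. All 3 ratios were lower in both uniSTING libraries than in either Mock library. The exact two-sided permutation test over the 4 libraries gave p = 0.333 for each of the 3 ratios, the smallest value that 2 against 2 libraries allow. With the length trend removed the 3 differences were -0.17, -0.27 and -0.67. In per-length terms, the inducible genes made up 25.6% and 27% of the 6 catalytic transcripts in Mock and 19.7% and 19.5% in uniSTING. Most of this share was Psmb10, at 55 CPM per kb in Mock, against 7.2 for Psmb8 and 2.72 for Psmb9. The share was not computed with the length trend removed.

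The activator genes moved in both directions. Psme2 (chromosome 14, 55824898 to 55828570), which encodes PA28 beta, had the largest log2 fold change of the 41 members. It went from 49.4 and 57.4 CPM in Mock to 85.6 and 89.5 CPM in uniSTING, a rise of 0.71 on the log2 scale (SE 0.06, adjusted p = 2.98e-06), and of 0.53 with the length trend removed. Psme1 (chromosome 14, 55815580 to 55818986), which encodes the partner PA28 alpha, went from 112 and 110 CPM to 127 and 130 CPM, a rise of 0.21 on the log2 scale (SE 0.03, adjusted p = 0.000182). Neither gene's groups overlapped, but the call of Psme1 was lost with the length trend removed (log2 fold change 0.07, adjusted p = 0.0746). It passed once GC content was also taken into account (0.15, adjusted p = 0.00232). Psme4, which encodes the nuclear activator PA200, fell from 170 CPM in each Mock library to 142 and 143 CPM (log2 fold change -0.25, SE 0.03, adjusted p = 1.28e-05). Psme3, which encodes the nuclear activator PA28 gamma, fell 1.09-fold.

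The size of the Psme2 rise is uncertain, because the gene has a near-identical copy, Psme2b, on chromosome 11. Over 794 aligned bases, the reference transcripts of the pair (GENCODE M21) were 99.4% identical. Psme2b held 675 and 654 reads in the Mock libraries against 643 and 782 with uniSTING, or 43.7% and 34% of the reads of the pair in Mock and 28.6% and 26% in uniSTING. The Mock libraries thus differed in how the reads were divided. The sum of both genes was 87.7 and 87 CPM in Mock and 120 and 121 CPM in uniSTING, a 1.38-fold difference, against 1.63-fold for Psme2 alone.

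Promoter windows of the compared genes are shown because the inducible and constitutive catalytic subunits differed in their calls. They were taken from RefSeq on GRCm38.p6, 5′ to 3′ on the gene's strand, with 250 bases before and 50 after the start. Capitals mark matches to an interferon-stimulated response element core (GAAA, any 2 bases, GAAA), a gamma-activated site (TTCNNNGAA) or an antioxidant response element core (TGACNNNGC), searched on both strands.
Psmb8 promoter, chr17:34197945-34198244, plus strand: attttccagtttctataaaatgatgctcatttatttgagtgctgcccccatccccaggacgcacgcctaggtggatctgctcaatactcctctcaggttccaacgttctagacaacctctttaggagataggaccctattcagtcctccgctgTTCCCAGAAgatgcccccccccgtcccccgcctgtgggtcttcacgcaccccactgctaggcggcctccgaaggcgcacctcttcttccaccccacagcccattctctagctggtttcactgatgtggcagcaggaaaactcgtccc
Psmb9 promoter, chr17:34187281-34187580, minus strand: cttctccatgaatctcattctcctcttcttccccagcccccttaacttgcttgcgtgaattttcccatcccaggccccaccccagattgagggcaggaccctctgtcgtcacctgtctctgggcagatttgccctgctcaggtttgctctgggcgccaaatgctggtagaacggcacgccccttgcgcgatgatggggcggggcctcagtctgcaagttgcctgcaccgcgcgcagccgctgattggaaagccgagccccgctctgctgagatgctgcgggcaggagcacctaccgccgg
Psmb10 promoter, chr8:105938343-105938642, minus strand: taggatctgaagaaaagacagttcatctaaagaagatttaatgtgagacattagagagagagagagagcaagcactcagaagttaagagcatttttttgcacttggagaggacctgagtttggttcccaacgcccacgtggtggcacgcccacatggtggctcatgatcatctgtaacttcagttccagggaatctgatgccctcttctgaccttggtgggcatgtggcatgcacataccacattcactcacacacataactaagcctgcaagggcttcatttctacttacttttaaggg
Psme1 promoter, chr14:55578244-55578543, plus strand: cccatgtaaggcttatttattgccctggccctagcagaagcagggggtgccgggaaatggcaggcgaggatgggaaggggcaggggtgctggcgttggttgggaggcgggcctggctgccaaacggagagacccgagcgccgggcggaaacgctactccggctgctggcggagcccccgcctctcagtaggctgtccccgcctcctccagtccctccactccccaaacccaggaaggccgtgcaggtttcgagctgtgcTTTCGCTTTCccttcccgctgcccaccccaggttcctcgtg
Psme2 promoter, chr14:55591052-55591351, minus strand: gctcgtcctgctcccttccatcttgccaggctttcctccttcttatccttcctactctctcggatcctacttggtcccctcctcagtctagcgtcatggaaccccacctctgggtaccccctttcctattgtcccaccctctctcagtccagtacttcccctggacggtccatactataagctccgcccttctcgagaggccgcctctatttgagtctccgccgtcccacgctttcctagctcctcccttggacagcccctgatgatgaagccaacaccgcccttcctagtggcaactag
Psmb5 promoter, chr14:54617946-54618245, minus strand: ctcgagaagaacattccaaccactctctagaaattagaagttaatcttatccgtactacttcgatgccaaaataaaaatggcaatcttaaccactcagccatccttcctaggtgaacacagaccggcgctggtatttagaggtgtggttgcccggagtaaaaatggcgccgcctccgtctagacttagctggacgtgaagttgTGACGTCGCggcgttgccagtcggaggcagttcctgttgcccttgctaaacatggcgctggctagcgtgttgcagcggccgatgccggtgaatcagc
Psmb6 promoter, chr11:70525107-70525406, plus strand: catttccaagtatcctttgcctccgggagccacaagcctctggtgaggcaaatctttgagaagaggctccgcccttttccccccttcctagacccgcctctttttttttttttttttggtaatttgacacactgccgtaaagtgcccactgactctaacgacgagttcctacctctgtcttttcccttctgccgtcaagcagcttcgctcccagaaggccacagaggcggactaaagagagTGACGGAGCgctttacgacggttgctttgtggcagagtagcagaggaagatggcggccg

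The windows shown held 4 matches, none overlapping another. Psmb8 held the gamma-activated site TTCCCAGAA, starting 97 bases before the start of transcription, a letter pattern found in 8.3% of all 32851 promoter windows. Psme1 held the response element core on its other strand, as TTTCGCTTTC, just after the start, a pattern found in 3.44% of all windows. Psmb5 and Psmb6 held the antioxidant core as TGACGTCGC and TGACGGAGC, 47 and 9 bases before the start. That pattern occurred in 12.4% of all windows. Of the 35 members with an entry, 4 held the response element core (Psmb3, Psmd4, Psmd9 and Psme1) and 2 the gamma-activated site (Psmb8 and Psmd2). The antioxidant core was held by 6. Those 6 were Psmb5, Psmb6, Psmc6 and Psmd12, which rose, Psmd9, which did not pass, and Psme4, which fell. A further 2 patterns were searched and are not set in capitals: a CCAAT box (CCAAT) was held by 13 of the 35 members and 37.4% of all windows, and an NF-kB site by 6 of the 35 and 8.46% of all windows. The windows of Psmb9, Psmb10 and Psme2 held none of the 3 patterns in capitals. Psme2 had another window from a different start, chr14:55590972-55591271, which is not shown and held none of them either. A match describes letters and not a used site. Psmb7 was among the 6 members without an entry. Psmb9 and the peptide transporter gene Tap1 lie head to head on chromosome 17, and their annotated spans overlap by 212 bases.

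The alpha ring genes rose in all 7 cases, with a median log2 fold change of 0.31. Beside this count and the counts by role below, 24.9% of all tested genes rose. Among tested genes with a mean of at least 100 CPM 38.6% rose. Psma3 went from 166 CPM in each Mock library to 234 and 238 CPM in uniSTING, the largest rise among the constitutive members (log2 fold change 0.51, SE 0.02, adjusted p = 3.53e-08). It was 0.49 with the length trend removed. Psma6, the most abundant member per length, rose 1.27-fold and Psma5 rose 1.33-fold. Psma4 rose least, 1.18-fold, and lost its call once length and GC trends were removed (log2 fold change 0.07, adjusted p = 0.0953). In that setting 6 of the 7 alpha genes rose, with a median of 0.15, where 22.1% of all tested genes rose. Among the 4 beta subunits without catalytic activity, all rose, with Psmb1 first, from 290 and 291 CPM to 351 and 368 CPM (log2 fold change 0.31, SE 0.03, adjusted p = 2.04e-06). Psmb2, Psmb3 and Psmb4 rose by 1.10-fold to 1.18-fold. With the length trend removed these 3 lost their calls, with log2 fold changes of 0.00, 0.07 and -0.03 (adjusted p = 0.998, 0.0531 and 0.306).

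The ATPase ring, which unfolds substrates, rose in all 6 cases (median 0.24). Psmc3 went from 247 and 245 CPM in Mock to 329 and 334 CPM in uniSTING (log2 fold change 0.43, SE 0.02, adjusted p = 5.26e-08), and Psmc6 rose 1.26-fold. Psmc4 rose least, at a log2 fold change of 0.10. In DESeq2 its adjusted p was 0.0683, leaving out Mock replicate 2 gave 0.0502, and its log2 fold change was -0.03 with the length trend removed. The calls of Psmc1 and Psmc5 were lost there too (log2 fold changes 0.06 and 0.02).

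The other subunits of the base rose as well. Psmd4, a ubiquitin receptor, went from 235 and 246 CPM to 294 and 292 CPM (log2 fold change 0.28, SE 0.03, adjusted p = 4.25e-06). The scaffold genes Psmd1 and Psmd2 rose 1.14-fold and 1.05-fold. Psmd2 had the highest CPM of all members, at 524 and 531 CPM in Mock and 554 and 553 CPM in uniSTING, and lost its call without Mock replicate 1 (adjusted p = 0.0808). In the lid, which holds the deubiquitinating subunit, 7 of 8 genes rose (median 0.28). Psmd7 went from 233 and 235 CPM to 299 and 308 CPM (log2 fold change 0.37, SE 0.02, adjusted p = 3.12e-07). Its partner Psmd14, the deubiquitinase itself, went from 200 and 197 CPM to 257 and 254 CPM, a rise of 0.36 on the log2 scale (SE 0.02). The lid gene Psmd3 did not pass, at 320 and 318 CPM in Mock and 316 and 316 CPM in uniSTING. Psmd3 passed as higher once length and GC trends were removed (log2 fold change 0.08, adjusted p = 0.0108), where the lid gene Psmd11 lost its call (0.04, adjusted p = 0.212).

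Of the 3 chaperones that help to assemble the base, only Psmd10, also known as gankyrin, rose, from 31.9 and 30.1 CPM to 43.2 and 42.3 CPM (log2 fold change 0.46, SE 0.07, adjusted p = 0.000141). Its call was lost once length and GC trends were removed (adjusted p = 0.0855). Psmd5 had a log2 fold change of 0.09 (adjusted p = 0.0532) and passed with the length trend removed (0.20, adjusted p = 0.000774). Psmd9 stood at 38 and 42.4 CPM in Mock and 40.6 and 42.8 CPM in uniSTING, with overlapping groups (adjusted p = 0.589).

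Levels per exon length ran from 2.72 CPM per kb for Psmb9 to 205 for Psma6 in Mock, with a median of 64.1. In uniSTING the range was 2.59 to 261, between the same genes, with a median of 71. Psmb8 stood at 7.2 CPM per kb in Mock, 39th of 41 in order, and Psmb10 at 55, 26th. The constitutive Psmb5, Psmb6 and Psmb7 stood at 63.7, 81.1 and 36.8 CPM per kb. In this order Psmb10 thus lay above its counterpart Psmb7, while Psmb8 and Psmb9 lay far below theirs. In uniSTING Psmb10 stood at 47.9 and Psmb7 at 46.2 CPM per kb. The length used joins every annotated exon of a gene and so lowers the value of genes with long minor isoforms, which limits such comparisons between genes.

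**Figure D3:**
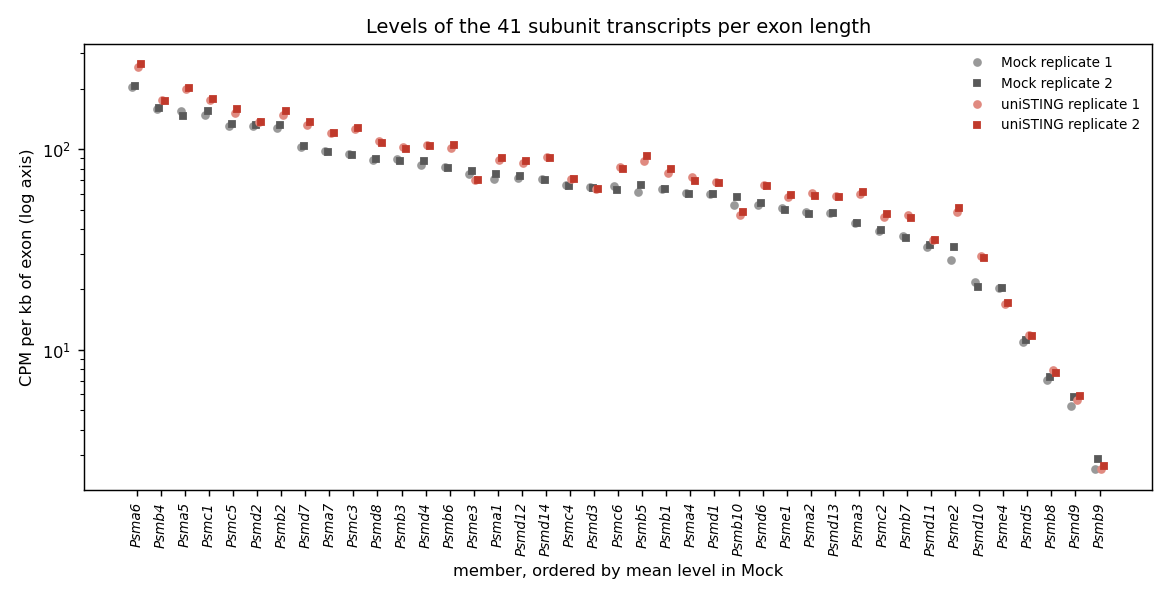
CPM per kb of exon (y axis, log scale) of the 41 members in each of the 4 libraries, ordered by their mean in Mock (x axis). Psma6 is highest and Psmb9 lowest in both groups, and Psmb8 is 39th.

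Fold changes followed gene length in these libraries, also among the members. Over the 41 members, which share the same libraries, Spearman's rho of log2 fold change and exon length was -0.39, against -0.36 over all tested genes. The members are short, with a median exon length of 2.82 kb against 4.15 kb over all tested genes. With the length trend removed, 27 members rose, 3 fell and 11 did not pass, with a median of 0.19, where 45.7% of all tested genes passed, 23.4% higher and 22.3% lower. The same counts, 27, 3 and 11, were found once GC content was also removed, with a median of 0.15 and with 43.7% of all tested genes passing, 22.1% higher and 21.6% lower. In both settings the 3 constitutive catalytic genes rose, Psmb8 and Psmb9 did not pass, and Psmb10, Psme3 and Psme4 fell.

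**Figure D4:**
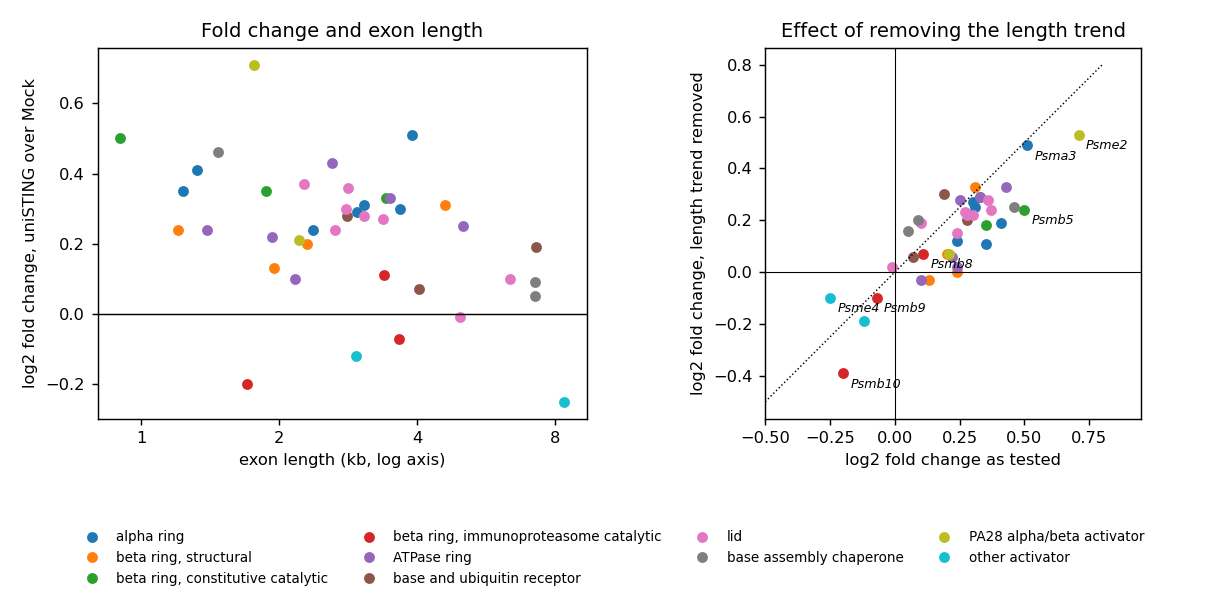
Left, log2 fold change in uniSTING over Mock (y axis) against exon length (x axis, log scale) for the 41 members; right, the log2 fold change with the length trend removed (y axis) against that tested (x axis), with the line of equality dotted. Psmb5 moves from 0.50 to 0.24 and Psmb10 from -0.20 to -0.39, while Psma3 stays near the line.

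Other genes of the pathway moved in both directions. Of 42 tested genes on a list of assembly factors, associated proteins, ubiquitin precursors, substrate carriers, regulators and peptide-handling proteins, 13 rose, 20 fell and 9 did not pass, with a median log2 fold change of -0.08, where 24.9% of all tested genes rose and 25.4% fell. The share of the list that rose was near that of all tested genes. The number that rose was 6 with DESeq2, where 39.9% of all tested genes passed, against 50.2% in the test reported. It was also lower without Mock replicate 1. Pomp, the maturation factor of the core particle, went from 118 and 123 CPM to 156 CPM in each uniSTING library (log2 fold change 0.37, SE 0.03, adjusted p = 1.76e-06). Sem1, the smallest lid subunit, went from 95.7 and 95.3 CPM to 125 and 129 CPM (log2 fold change 0.41, SE 0.03). Adrm1, a ubiquitin receptor, rose 1.05-fold, a call lost in 8 of the alternatives (adjusted p from 0.0523 to 0.249). Psmf1, which encodes the inhibitor PI31, fell from 39.9 and 39 CPM to 30 and 31.8 CPM (log2 fold change -0.35, SE 0.07, adjusted p = 0.00109).

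Among the genes that deliver ubiquitinated substrates, 8 of 9 fell and 1 rose (median -0.21). Over all tested genes 25.4% fell and 24.9% rose, and 41.1% fell among those with a mean of at least 100 CPM. The shuttle gene Ubqln2 went from 40.5 and 39 CPM to 24.5 and 25.9 CPM (log2 fold change -0.65, SE 0.07, adjusted p = 1.44e-05). Vcp, the unfoldase that extracts substrates, went from 397 and 433 CPM to 304 and 314 CPM, a fall of 1.34-fold, and Ufd1, its cofactor, was the gene that rose, 1.13-fold. With the length trend removed, 7 of the 9 fell, where 22.3% of all tested genes fell. Of the ubiquitin precursors, Rps27a rose from 943 and 938 CPM to 1329 and 1294 CPM (log2 fold change 0.48, SE 0.02). Ubb fell, from 5.39 and 6.02 CPM to 3.26 and 3.29 CPM. Its repeated, near-identical ubiquitin units make counts of uniquely mapped reads uncertain.

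Nfe2l1, which encodes the transcription factor known for raising constitutive subunit genes when proteasome activity is limiting, fell 1.09-fold, from 322 and 337 CPM to 302 and 303 CPM (adjusted p = 0.00174). That call was lost once length and GC trends were removed (adjusted p = 0.41). Irf1, known for driving inducible subunit genes, did not pass, at 70.5 and 73.9 CPM in Mock and 73.6 and 73.6 CPM in uniSTING.

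Of 9 peptide-handling genes 3 rose and 3 fell, shares near the 24.9% and 25.4% over all tested genes. Tap1, the neighbour of Psmb9, stood at 8.68 and 10.6 CPM in Mock and at 12 and 12.9 CPM in uniSTING (log2 fold change 0.36, SE 0.11, adjusted p = 0.0208). Tap1 did not pass in DESeq2 (adjusted p = 0.0865), nor when Mock replicate 1 or uniSTING replicate 2 was left out (adjusted p = 0.13 and 0.0873). Tap2, the gene for the other transporter subunit, stood at 21.1 and 21 CPM in Mock and 22.5 and 21.7 CPM in uniSTING and did not pass (adjusted p = 0.451). The tissue-specific subunits Psma8, of testis, and Psmb11, of thymus, had no count in any of the 4 libraries.

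Some members share exon bases with other genes, and the counting used no strand, so reads there cannot be told apart. Psmb8 shared 14.7% with Gm20496 and Psmb5 12.1% with Mir686, neither of which had a count. That lack of counts does not show that no reads fell on the shared bases. CPM per kb used the full exon length, shared bases included, also in the ratio of Psmb8 to Psmb5. Psmb7 shared 11.8% of its exon bases with Nek6, Psmd13 10.1% with Sirt3, Psmc3 8.25% with Slc39a13 and Psmb9 5.79% with Tap1. For 30 members no exon base was shared.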

How the data were processed

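Raw counts per gene were deposited, 1 table for each of the 4 libraries. Per the file headers, the authors counted read pairs over exons with featureCounts 2.0.1 in paired-end mode, without a strand option, on uniquely mapped alignments and the Ensembl 103 annotation of GRCm39. Alignment was with HISAT2 per the submitters' processing notes, which name no version. Unique mapping and unstranded counting affect near-identical copies and overlapping genes. Gene symbols came from an identifier table that matched 52093 of 53647 genes. Of the 45 related genes, 44 were matched. Some of the related genes that the rule names are not reported here.

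Groups and replicate numbers follow the sample titles. The test was edgeR 4.0.16 under R 4.3.3 (TMM, filterByExpr with a minimum count of 10 and a minimum total of 15, glmQLFit, glmQLFTest), with Benjamini-Hochberg adjustment over 12972 genes at a threshold of 0.05. CPM are counts per 1000000 counts of TMM-scaled library size. Standard errors were derived from the F statistic. Alternatives were other filters, DESeq2 size factors, DESeq2 1.42.0, limma-voom (limma 3.58.1), the replicate block, each library left out, and the lowess trend (span 0.3) with exon length, or length and GC content of reference transcripts (99.9% of tested genes), removed as offsets. The test was checked on simulated counts of 12972 genes, 200 of them changed, in 10 draws for each of 2 dispersion models. A first check with each gene's own dispersion gave too many false calls, and dispersions from the trend were then added. False calls averaged 3.99% of calls (0.69% to 6.79%) with the trend and 11.4% (6.76% to 18.1%) with gene-wise dispersions, above the nominal 5%, so calls with an adjusted p near 0.05 are less certain than that threshold states. Genes changed 2-fold were recovered in 80.4% and 80.5% of cases. The largest change of a member was 1.63-fold, so these figures do not give the recovery of changes as small as the members'. The simulated counts held no length trend and few changed genes, while 50.2% of tested genes passed in the data. The members, lists and alternatives were chosen with earlier results of these data known. All members may be named; full statistics are given for the 8 compared genes, for the largest change of each other role, and for related genes fixed in the same way with the 4 largest other changes. Promoters came from RefSeq on GRCm38.p6, another build than the files'; 5 motifs were searched, and the 3 in capitals were chosen after all 5 were counted. The abundance bound, the sum of Psme2 with its copy, Psme3, Psma5, Psma6, Vcp and Ufd1 were singled out after their values were seen.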

Additional observations from a re-analysis of the deposited data

How the results depend on the processing

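The number of members that rose was between 27 and 34 in all 12 alternatives, and 2 or 3 fell. Of the 41 members, 35 kept their direction and side of the threshold in the 10 alternatives without trend removal, and 25 in all 12. The median log2 fold change of the members was 0.19 with the length trend removed and 0.15 with length and GC trends removed, 0.25 to 0.27 when a library was left out, and 0.25 in each replicate number alone, chosen after seeing the data. The direction turned with the length trend removed for Psmb4 (-0.027), Psmc4 (-0.034) and Psmd3 (0.016), and with length and GC trends removed for Psmc4 (-0.005) and Psmd3 (0.077). With a library left out it turned for Psmb9 (-0.162 to 0.015), Psmd9 (-0.032 to 0.132) and Irf1 (-0.013 to 0.060), each of which did not pass in the test reported. The number of related genes that rose was 6 with DESeq2 and 7 to 10 when a library was left out. The log2 differences of the 3 ratios were below 0 in each of the 5 alternatives run for them. Leaving out a library could not turn their direction, because both uniSTING ratios lay below both Mock ratios. Only removal of the length trend could have turned it. Without the low count filter, 31.4% of all tested genes passed, against 50.2% with it, over more genes tested. The cause of these changes was not tested. A fit with 1 library in a group assumes that it varies like the other group. With the replicate block, 33 members rose and 3 fell, and 12 related genes rose and 20 fell; the numbers are not stated to pair the samples. Over 7970 genes above 16 CPM, the deviations of Mock and uniSTING replicate 1 from their group means correlated at 0.531. The depth leaves Psmb9, with 165 to 240 counts, the least precise member.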
